A study of Mus musculus with 4 samples.

Results

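Transforming growth factor beta (TGF-beta) signaling was described through 9 genes in CD4 T cells of tumor-bearing and normal mouse lung: the ligand gene Tgfb1, the receptor genes Tgfbr1 and Tgfbr2, the signal transducer Smad3, the inhibitors Smad7 and Ldlrad4, and the corepressors Ski, Skil and Tgif1. The genes were taken by symbol, and all 9 were found, each on 1 row, among the 31053 genes of both gene expression matrices. The cells came from C57BL/6 mice. In the tumor group the mice had received TC1 cells, lung epithelial tumor cells kept as a line and grown in syngeneic mice, through the tail vein and their lungs were taken after 3 weeks. The normal group was lung of age-matched mice. Lungs were perfused and digested with collagenase, and live CD4-positive cells were sorted after a Percoll gradient and magnetic enrichment. Each group gave 1 droplet library of 5' gene expression with a matching T cell receptor library, and the number of mice behind each suspension is not stated. The title of the series places the accumulation of regulatory T cells (Tregs) in tumors, through interleukin-33 and its receptor ST2, at the center of the study.

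TGF-beta is secreted in a latent form, bound to its own propeptide, and acts only after release. On Tregs the latent complex is held at the cell surface by GARP, the product of Lrrc32, and released by the integrin built from the products of Itgav and Itgb8. The free ligand binds the type II receptor, encoded by Tgfbr2, which recruits and activates the type I receptor, encoded by Tgfbr1. The type I receptor phosphorylates Smad2 and Smad3, which enter the nucleus with Smad4 and switch target genes. Smad7 and Skil are both brakes on the pathway and known targets of it. In CD4 T cells TGF-beta is known for inducing Foxp3 and the integrin gene Itgae, for supporting Th17 cells together with other cytokines, and for restraining effector cells.

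Cells with at least 1 unique molecular identifier (UMI, a tag that marks a distinct captured molecule) of Foxp3, the transcription factor of Tregs, are called Foxp3-positive here and the rest Foxp3-negative. Both were split by Ccr7, the lymph node homing receptor of naive and resting cells, into cells with at least 1 Ccr7 UMI (Ccr7-positive) and none (Ccr7-negative). A cell without a UMI can still express the gene. After filtering, 7135 tumor-lung cells with 31921001 UMIs and 7082 normal-lung cells with 28084248 UMIs were kept, with medians of 4173 and 3906 UMIs per cell. Foxp3-positive cells numbered 1147 in tumor lung (16.1% of kept cells), of which 401 were Ccr7-positive and 746 Ccr7-negative, and 206 in normal lung (2.91%), of which 175 were Ccr7-positive and 31 Ccr7-negative. Foxp3-negative cells numbered 4849 Ccr7-positive and 1139 Ccr7-negative in tumor lung, and 6194 and 682 in normal lung. The 31 Foxp3-positive Ccr7-negative cells of normal lung held 123797 UMIs, so that 3 UMIs there amount to 24.2 CPM (counts per 1000000 UMIs), and each value from them is wide. A further 86 cell barcodes occurred in both libraries, and 80 of them were among the kept cells of each.

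The cells carried T cell transcripts: Cd3e, a chain of the T cell receptor complex, had a UMI in 97.3% of tumor-lung and 96.8% of normal-lung cells. Of the 2 CD8 markers, Cd8a had a UMI in 4 and 2 cells, and Cd8b1 in 440 (6.17%) and 418 (5.90%). Summed CD8 markers stood at 25.8 CPM in tumor against 14.4 in normal Foxp3-positive cells, and at 13.3 against 16.4 in Foxp3-negative cells. Among Ccr7-positive cells, all 7 Treg markers tested were at least 1.5-fold higher in Foxp3-positive than in Foxp3-negative cells of both libraries. Marker sets of other cells differed in both directions between the Foxp3-positive cells of the lungs. Summed epithelial markers stood at 37.7 CPM in tumor lung against 3.33 in normal lung, with Krt8 and Krt19 at 0 in both. Summed dendritic cell markers stood at 15.4 against 3.33, with Flt3, Clec9a and Siglech at 0 in both. Summed B cell markers stood at 21.4 against 13.3, with Ms4a1 at 0 in both. Each normal value of 3.33 CPM came from 3 UMIs. Over all kept tumor-lung cells Epcam gave 352 of the 413 epithelial UMIs, Zbtb46 123 of the 132 dendritic and Cd79b 151 of the 194 B cell UMIs. In normal lung they gave 53 of 140, 13 of 23 and 19 of 53. In Foxp3-negative cells the same sums were 7.03 against 5.04, 1.44 against 0.736 and 2.41 against 1.51 CPM. Lower in tumor-lung than in normal-lung Foxp3-positive cells were the summed markers of endothelium, at 54.1 against 121 CPM, with Cdh5, Cldn5 and Vwf at 0 in both. Over all kept cells Pecam1 gave 2472 of the 2478 endothelial UMIs in tumor and 2454 of 2461 in normal lung. Macrophage and monocyte markers, at 4.06 against 4.44 CPM, came from 25 and 4 UMIs. Platelet markers, at 0.649 against 1.11, came from 4 and 1 UMIs, and neither set had enough to give a direction. The part of such transcripts in the member values was not tested.

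Levels are CPM of the summed UMIs of a class, with an exact Poisson 95% interval in parentheses. Intervals cover counting error only and treat the UMIs and cells of a library as independent, which they are not. With 1 library per tissue there is no replicate, no test and no p-value, and tissue and library cannot be told apart. A difference is called when it reaches 1.5-fold among genes with at least 50 UMIs over both groups, and the share of all such genes called is given beside the count of members in each comparison. Foxp3-positive cells held 6159263 UMIs in tumor lung and 899932 in normal lung. A gene high in the larger group therefore reached this minimum more easily, which favors calls of higher genes, also in the share of all genes.

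Tgfb1 encodes the main TGF-beta ligand of lymphocytes and lies on chromosome 7 (chr7:25687002-25705077, GRCm38.p6, ENSMUSG00000002603). In tumor lung it stood at 261 CPM (241 to 282) in Foxp3-positive Ccr7-positive cells, 313 (295 to 331) in Foxp3-positive Ccr7-negative cells, 129 (124 to 134) in Foxp3-negative Ccr7-positive cells and 178 (166 to 191) in Foxp3-negative Ccr7-negative cells. In normal lung the same classes stood at 164 (136 to 195), 194 (124 to 288), 110.0 (106 to 114) and 154 (139 to 171) CPM. The highest levels were thus those of tumor-lung Foxp3-positive cells, the lowest those of Ccr7-positive Foxp3-negative cells, and neighbours in the order did not differ beyond counting error from the second rank to the sixth. A Tgfb1 UMI was seen in 67.3% (64.5 to 70.0) of tumor-lung Foxp3-positive cells and 46.1% (39.2 to 53.2) of those of normal lung. With every cell thinned to 2417 UMIs the shares were 47.9% (44.9 to 50.9) and 29.0% (22.7 to 35.97). Foxp3-positive cells, 16.1% of tumor-lung cells with 19.3% of the UMIs, held 33.7% of the library's Tgfb1 UMIs, and in normal lung they were 2.91% of cells and held 4.64%. No cell type known to lack these genes was in the sort, so the share of such UMIs that free RNA can give was not measured.

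Tgfb1 and Tgfbr2 are the ligand and receptor whose levels went opposite ways between Foxp3-positive and Foxp3-negative cells, so the 250 bases before the RefSeq start of each are shown. Capitals mark the Smad-binding core CAGAC or its reverse complement GTCTG, and the GC box GGGCGG or CCGCCC, on either strand.
Tgfb1, chr7:25686752-25687001, plus strand: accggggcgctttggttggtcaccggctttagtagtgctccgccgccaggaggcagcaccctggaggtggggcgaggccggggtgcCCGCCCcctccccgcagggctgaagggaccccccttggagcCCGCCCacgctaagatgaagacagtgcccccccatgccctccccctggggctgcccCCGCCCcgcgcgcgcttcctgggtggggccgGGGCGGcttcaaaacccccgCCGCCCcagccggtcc
Tgfbr2, chr9:116175364-116175613, minus strand: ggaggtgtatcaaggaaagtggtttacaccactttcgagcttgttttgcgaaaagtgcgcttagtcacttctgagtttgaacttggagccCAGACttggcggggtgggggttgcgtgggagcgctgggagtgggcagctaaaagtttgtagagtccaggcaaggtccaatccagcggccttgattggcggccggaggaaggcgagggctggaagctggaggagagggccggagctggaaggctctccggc
The Tgfb1 stretch held 5 GC boxes and no CAGAC, at 75.2% G and C. The Tgfbr2 stretch held 1 CAGAC, 160 bases before the start, and no GC box, at 58.4% G and C. Among 32851 mouse promoter stretches of the same length, CAGAC occurred in 42.2% and the GC box in 32.7%, and the median G and C content was 52.4%. RefSeq promoter entries matched 6 of the 9 members, with 11 entries in all, and the longer palindrome GTCTAGAC was in none of them, against 0.167% of all stretches. These matches are letters in a window, not sites shown to be bound.

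Tgfbr2, the ligand-binding type II receptor gene (chr9:116087695-116175363, ENSMUSG00000032440), showed the reverse order of classes. In tumor lung it stood at 139 CPM (125 to 155) and 107 (96.6 to 118) in Foxp3-positive Ccr7-positive and Ccr7-negative cells, and at 337 (329 to 345) and 287 (272 to 303) in the Foxp3-negative classes. In normal lung the Foxp3-positive classes stood at 184 (155 to 217) and 96.9 (50.1 to 169), and the Foxp3-negative classes at 292 (286 to 299) and 267 (247 to 288). All 4 Foxp3-negative sums were above all 4 Foxp3-positive sums, and the lowest Foxp3-negative interval did not meet the highest Foxp3-positive one. Foxp3-positive cells held 8.02% of the Tgfbr2 UMIs of tumor lung and 1.93% of those of normal lung. A Tgfbr2 UMI was seen in 42.0% of tumor-lung Foxp3-positive and 70.0% of Foxp3-negative cells, or 24.9% (22.4 to 27.6) and 53.2% (51.8 to 54.5) after thinning. The median depth was higher in the Foxp3-positive cells, 4725 against 4111.5 UMIs.

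Tgfbr1, the signaling type I receptor gene (chr4:47353222-47414926, ENSMUSG00000007613), had 451 UMIs in tumor and 354 in normal lung and ranged from 7.72 CPM (4.65 to 12.1) in normal Foxp3-negative Ccr7-negative cells to 19.1 (14.0 to 25.4) in tumor Foxp3-positive Ccr7-positive cells, beside 32.3 (8.80 to 82.7) from 4 UMIs in the 31 cells named above. In every class the interval overlapped that of the next in order. Cells with UMIs of both receptor genes were few, 286 of 7135 in tumor lung (4.01%, 3.57 to 4.49) and 210 of 7082 in normal lung (2.97%, 2.58 to 3.39). Levels of different genes were not compared, since capture differs between genes.

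Smad3, the transducer that carries the signal to the nucleus (chr9:63646766-63757994, ENSMUSG00000032402), was at 21.9 CPM in both tumor-lung Foxp3-positive classes (16.5 to 28.6 and 17.4 to 27.2). It was at 14.5 (12.9 to 16.2) in tumor-lung Foxp3-negative Ccr7-positive cells and 24.3 (19.9 to 29.3) in Ccr7-negative ones. Normal lung gave 18.0 (9.86 to 30.3) and 72.7 (33.2 to 138, from 9 UMIs) in the Foxp3-positive classes, and 14.1 (12.6 to 15.6) and 24.8 (19.0 to 31.8) in the Foxp3-negative classes. The 2 lowest sums were thus the Ccr7-positive Foxp3-negative cells of both lungs.

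Smad7, the inhibitory Smad that blocks the type I receptor (chr18:75367365-75395935, ENSMUSG00000025880), was higher in tumor than in normal lung in each class. Its tumor-lung levels were 263 CPM (243 to 284) and 235 (220 to 251) in Foxp3-positive and 294 (287 to 301) and 250.2 (236 to 265) in Foxp3-negative cells, Ccr7-positive first. Its normal-lung levels were 165 (138 to 196), 169.6 (105 to 259), 207 (201 to 213) and 159 (144 to 176) in the same order. All 4 tumor sums were above all 4 normal sums, although the intervals of the 2 lungs overlapped in the Foxp3-positive Ccr7-negative class. Smad7 also differed between classes, and its highest level, in tumor-lung Foxp3-negative Ccr7-positive cells, had an interval that did not meet the next.

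Ldlrad4, a membrane protein gene whose product keeps receptor-regulated Smads from the type I receptor (chr18:67932274-68260550, ENSMUSG00000024544), was highest in Foxp3-positive cells of both lungs and in Ccr7-negative Foxp3-negative cells of tumor lung. Tumor lung gave 43.1 CPM (35.3 to 52.1) and 43.5 (37.1 to 50.8) in Foxp3-positive cells, 15.4 (13.8 to 17.2) in Foxp3-negative Ccr7-positive cells and 38.9 (33.4 to 45.2) in Foxp3-negative Ccr7-negative cells. Normal lung gave 36.1 (24.0 to 52.1), 88.9 (44.4 to 159, from 11 UMIs), 11.7 (10.4 to 13.2) and 17.9 (12.98 to 24.0). Foxp3-positive cells held 34.7% of the gene's UMIs in tumor lung and 10.5% in normal lung. The annotation overlaps Ldlrad4 with the protein-coding gene Fam210a, which had 302 and 255 UMIs. Whether the counting used strand is not given in the sources used here, so reads of the overlap may have been assigned to either.

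Skil, which encodes the Smad corepressor SnoN (chr3:31095058-31122923, ENSMUSG00000027660), was also higher in tumor than in normal lung in each class. Tumor lung gave 219 CPM (201 to 239) and 245 (230 to 262) in Foxp3-positive cells and 167 (162 to 173) and 178 (166 to 191) in Foxp3-negative cells. Normal lung gave 124 (100.2 to 151) and 72.7 (33.2 to 138, from 9 UMIs) in Foxp3-positive and 113 (109 to 117) and 88.9 (77.6 to 102) in Foxp3-negative cells. Again all 4 tumor sums exceeded all 4 normal sums. After thinning, a Skil UMI was seen in 42.0% (39.0 to 45.0) of tumor-lung Foxp3-positive cells and in 25.4% (19.4 to 32.1) of normal-lung ones.

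Tgif1, a homeobox corepressor that competes with coactivators on Smads (chr17:70844205-70853532, ENSMUSG00000047407), was higher in the Foxp3-positive than in the Foxp3-negative class of each lung and Ccr7 level. Tumor lung gave 253 CPM (234 to 274) and 282 (265 to 299) in Foxp3-positive cells and 136 (131 to 141) and 172 (160 to 184) in Foxp3-negative cells. Normal lung gave 162 (135 to 193) and 299 (210.4 to 412, from 37 UMIs) in Foxp3-positive cells and 119.8 (115 to 124) and 117 (104 to 131) in Foxp3-negative cells. Ski, the corepressor closest to Skil (chr4:155154075-155222535, ENSMUSG00000029050), ran from 34.3 (28.6 to 40.9) to 40.6 CPM (33.1 to 49.4) over 7 classes, beside 64.6 (27.9 to 127) from 8 UMIs in the small normal class. Every interval of Ski overlapped that of the next class in order, so that this gene was not told apart between any neighbours.

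**Figure D1:**
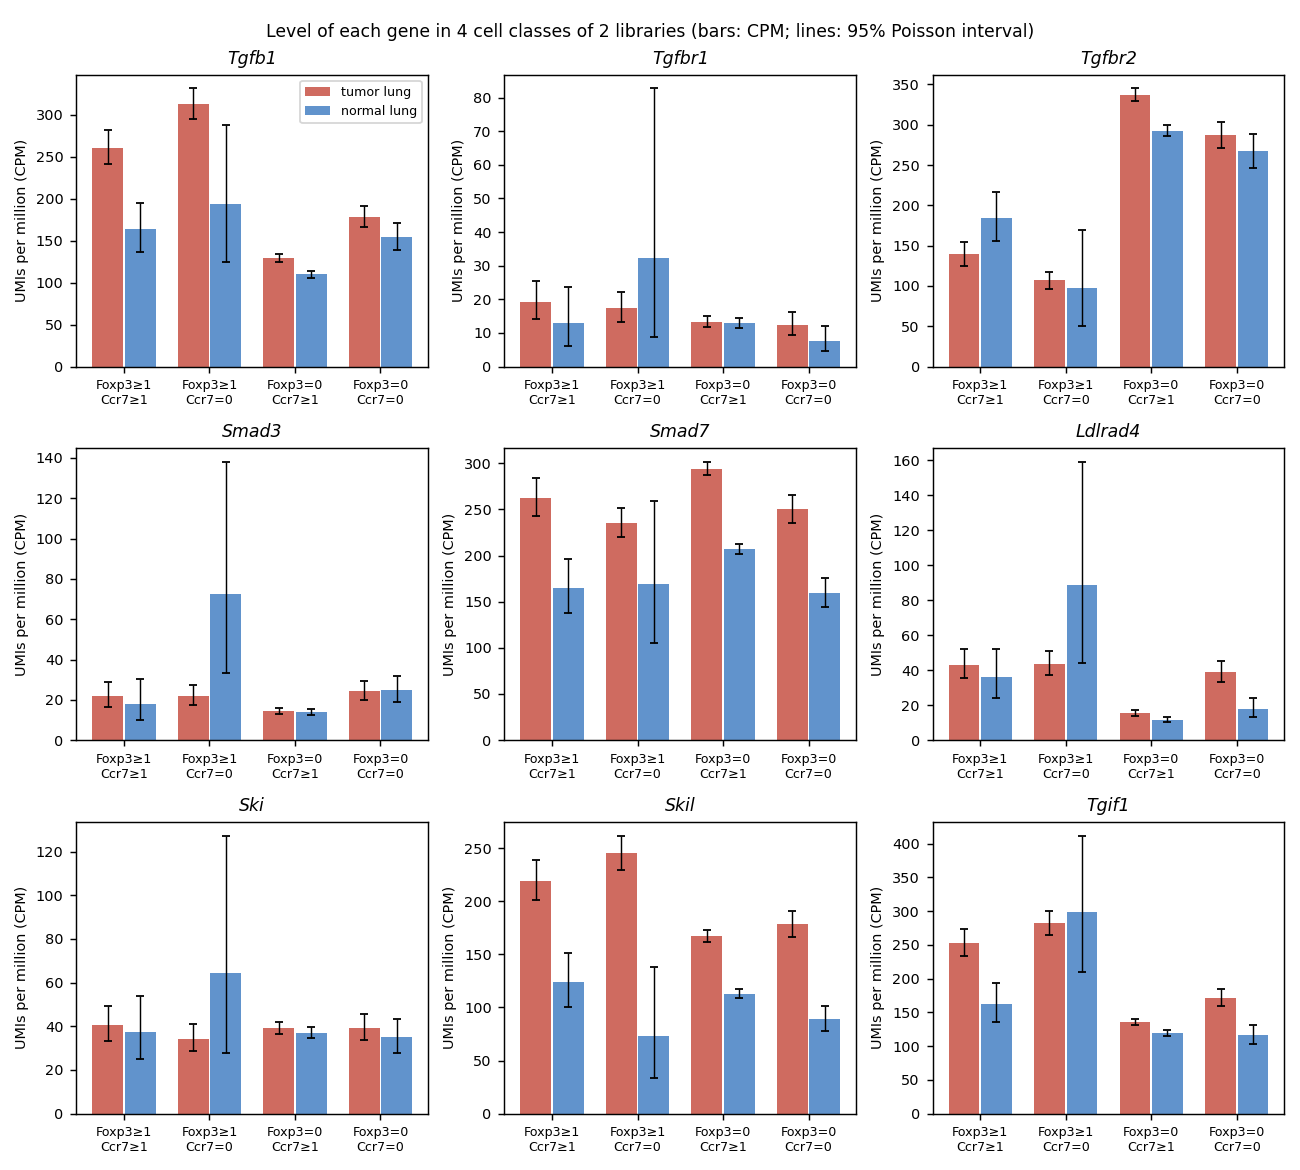
CPM of each of the 9 genes (y axis, from 0) in the 4 Foxp3 and Ccr7 classes (x axis), tumor lung in red and normal lung in blue, with exact Poisson 95% intervals as bars. Tgfb1 is highest and Tgfbr2 lowest in Foxp3-positive cells, Smad7 and Skil are above normal in every tumor class, and the normal Foxp3-positive Ccr7-negative class of 31 cells has the widest bars.

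The comparison of tumor with normal lung asked how each gene differed in the same class of cell. In Foxp3-positive cells Skil was 2.01-fold (1.65 to 2.48) and Tgfb1 1.74-fold (1.47 to 2.07) higher in tumor lung, which makes 2 members called higher and 0 lower, where 35.3% of the 8204 genes tested were called either way, 27.1% higher and 8.24% lower. Just short of 1.5-fold were Tgif1 at 1.49 (1.27 to 1.76) and Smad7 at 1.49 (1.26 to 1.77). Tgfbr2 was lower in tumor lung, at a ratio of 0.696 (0.584 to 0.833), or 1.44-fold. Tgfbr1 at 1.16 (0.662 to 2.19), Smad3 at 0.858 (0.548 to 1.40), Ldlrad4 at 1.00 (0.713 to 1.44) and Ski at 0.896 (0.631 to 1.31) had intervals that included equality. The median gene was itself 1.16-fold higher, a log2 difference of 0.21. Relative to it the log2 differences were 0.80 for Skil, 0.59 for Tgfb1, 0.37 for Tgif1, 0.36 for Smad7 and -0.74 for Tgfbr2.

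In Foxp3-negative cells Ldlrad4 was 1.59-fold (1.38 to 1.83) and Skil 1.53-fold (1.46 to 1.60) higher in tumor lung, again 2 members higher and 0 lower, where 9.18% of 10559 genes were called either way, 6.94% higher and 2.24% lower. Smad7 was at 1.41 (1.36 to 1.46), Tgfb1 at 1.21 (1.15 to 1.27), Tgif1 at 1.19 (1.13 to 1.25) and Tgfbr2 at 1.13 (1.10 to 1.17). The remaining 3, Tgfbr1, Smad3 and Ski, ran from 1.06 to 1.08 with intervals that included equality. The Skil call in Foxp3-negative cells was lost under both other scalings, with a log2 ratio of 0.58 in place of 0.61, and that of Ldlrad4 was not. Of 7 Treg markers tested in Foxp3-negative cells, 5 were called higher in tumor lung and 0 lower. Their part in the member values was not tested.

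**Figure D2:**
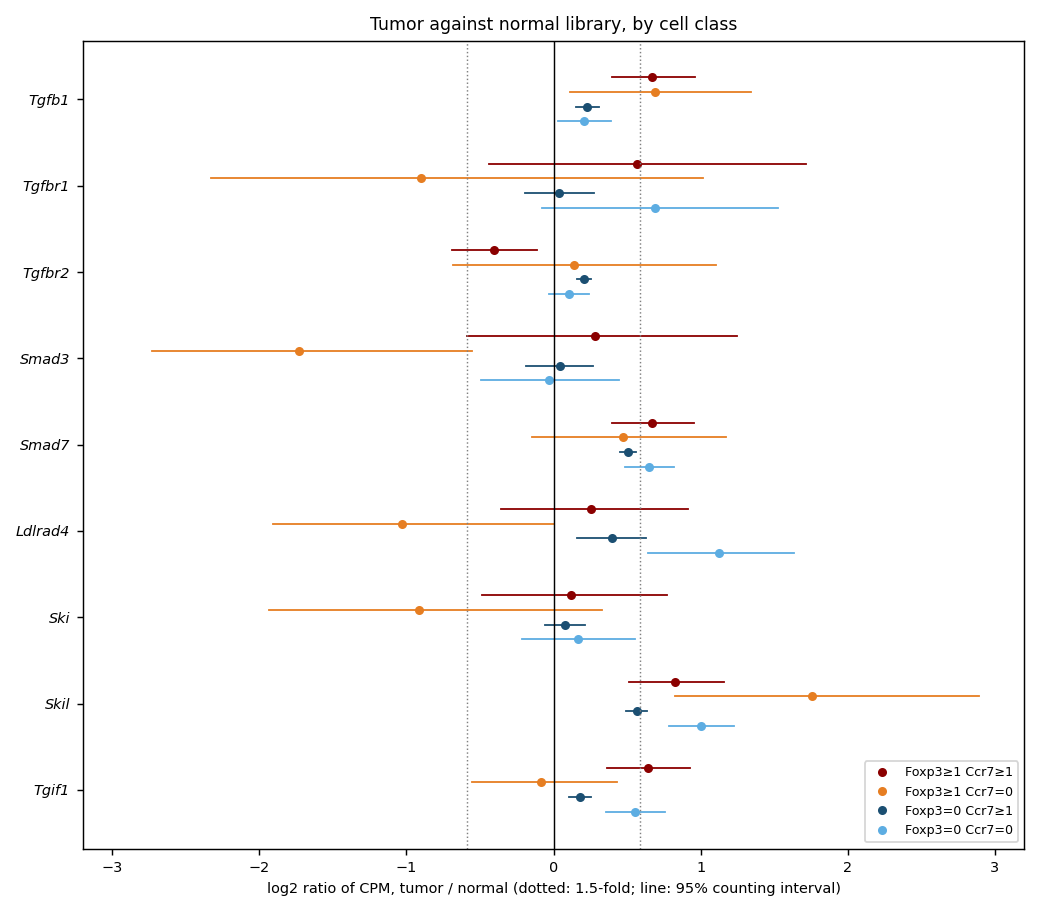
Log2 ratio of tumor to normal CPM (x axis) for each gene (y axis), in the 4 Foxp3 and Ccr7 classes, with 95% counting intervals; dotted lines mark 1.5-fold. Skil and Smad7 lie to the right of 0 in all 4 classes, while Tgfbr2 lies to the left in Foxp3-positive Ccr7-positive cells and to the right in both Foxp3-negative classes.

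The ratio in Foxp3-positive cells divided by that in Foxp3-negative cells was 1.44 (1.21 to 1.72) for Tgfb1, 0.614 (0.515 to 0.732) for Tgfbr2 and 0.629 (0.438 to 0.905) for Ldlrad4, with Wald intervals on the counts. For Skil it was 1.32 (1.08 to 1.62), for Tgif1 1.26 (1.06 to 1.49) and for Smad7 1.05 (0.887 to 1.25). In Ccr7-positive cells alone the same quantity was 1.36 (1.12 to 1.66) for Tgfb1, 0.656 (0.538 to 0.799) for Tgfbr2, 1.38 (1.13 to 1.68) for Tgif1, 1.20 (0.958 to 1.496) for Skil and 0.908 (0.582 to 1.42) for Ldlrad4. The direction of Tgfbr2 therefore differed between the compartments beyond counting error also among Ccr7-positive cells, whereas the Ldlrad4 value there included equality. In Ccr7-negative cells, with the 31 normal cells, Tgfbr2 did not show this, at 1.02 (0.572 to 1.83), and Tgif1 went the other way, at 0.642 (0.450 to 0.915). Ldlrad4 was at 0.225 (0.112 to 0.450), Smad3 at 0.308 (0.144 to 0.656) and Tgfb1 at 1.40 (0.916 to 2.13) there.

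Foxp3-positive cells of tumor lung were poorer in naive and homing transcripts than those of normal lung, with 6 of 7 such markers called lower, Klf2, a factor of the resting state, among them. Within Ccr7-positive Foxp3-positive cells, where 6 of 7 were also lower, 4 members were called higher and 0 lower, against 29.3% of genes called either way, 22.8% higher and 6.47% lower: Skil at 1.77 (1.42 to 2.23), Tgfb1 at 1.59 (1.32 to 1.94), Smad7 at 1.59 (1.32 to 1.94) and Tgif1 at 1.56 (1.29 to 1.90). Tgfbr2 stood at 0.756 (0.620 to 0.926). These 4 calls became 1, that of Skil, when CPM were scaled by median of ratios or by totals without mitochondrial, ribosomal and receptor genes. The share of all genes called under these scalings is not given here. The Ccr8 transcript, a marker of activated tumor Tregs, was 12.1-fold (9.03 to 16.6) higher in Foxp3-positive cells of tumor lung. In the 388 tumor and 180 normal Foxp3-positive cells without a Ccr8 UMI, a comparison added after the data were seen, Skil stood at 1.63 (1.29 to 2.09), Tgif1 at 1.57 (1.28 to 1.93), Tgfb1 at 1.51 (1.23 to 1.86) and Tgfbr2 at 0.743 (0.602 to 0.921).

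Ccr7-negative Foxp3-positive cells gave 2 members higher and 4 lower, against 43.9% of genes called either way, 27.4% higher and 16.5% lower, but rest on the 31 normal cells. Skil was at 3.37 (1.77 to 7.40) and Tgfb1 at 1.61 (1.08 to 2.53), and Smad3 at 0.301 (0.151 to 0.683). Also among the 4 lower, with intervals that included equality, were Ldlrad4 at 0.490 (0.267 to 1.001), Ski at 0.532 (0.262 to 1.26) and Tgfbr1 at 0.536 (0.199 to 2.03). Ski had 8 and Tgfbr1 4 UMIs in the normal cells. The Ldlrad4 log2 ratio of -1.03 became 0.27 when cells were thinned before classing. Tgfbr2, at 1.10 (0.624 to 2.15), was not lower there. Ccr7-positive Foxp3-negative cells, the largest class, gave 0 members called, against 7.73% of genes either way, 5.51% higher and 2.22% lower. The largest ratios there were those of Skil at 1.48 (1.41 to 1.56) and Smad7 at 1.42 (1.37 to 1.47). In Ccr7-negative Foxp3-negative cells 4 members were called higher and 0 lower, against 13.5% of genes either way, 7.9% higher and 5.55% lower: Ldlrad4 at 2.18 (1.56 to 3.11), Skil at 2.004 (1.72 to 2.34), Tgfbr1 at 1.62 (0.945 to 2.88, with an interval that included equality) and Smad7 at 1.57 (1.40 to 1.77). All 6 Treg markers tested in these cells were also called higher in tumor lung, and the Treg marker sum was 1180 against 455 CPM. The part of cells with Treg transcripts in the member values was not tested.

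Immediate early and digestion-induced genes were higher in tumor lung as a sum. Their summed level was 14352 CPM in tumor against 10876 in normal Foxp3-positive cells and 12974 against 9676 in Foxp3-negative cells. In Foxp3-negative cells 10 of 21 of them were called higher and 0 lower, with a median log2 ratio of 0.48 against 0.03 over all genes. In Foxp3-positive cells 5 of 16 were higher and 2 lower, close to the 27.1% and 8.24% of all genes, and their median log2 ratio of 0.16 was below the 0.21 of all genes. Hspa1a, a heat shock gene, had the largest Foxp3-negative ratio, 3.19 (2.20 to 4.74), and Klf6 the smallest, 0.876 (0.849 to 0.903). In Foxp3-positive cells Atf3 was at 3.38 (1.52 to 9.38) and Rhob at 0.273 (0.207 to 0.361). The part of this difference in the member values was not tested.

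The comparison of Foxp3-positive with Foxp3-negative cells was made within each library and Ccr7 level. Among Ccr7-positive cells of tumor lung, Ldlrad4 at 2.79 (2.22 to 3.49), Tgfb1 at 2.02 (1.85 to 2.21), Tgif1 at 1.87 (1.71 to 2.04) and Smad3 at 1.51 (1.11 to 2.03) were higher in Foxp3-positive cells and Tgfbr2 was 2.42-fold (2.17 to 2.70) lower, so that 4 members were called higher and 1 lower, against 34.4% of genes either way, 24.2% higher and 10.3% lower. Skil was at 1.31 (1.19 to 1.43) and Smad7 at 0.894 (0.823 to 0.970). Among Ccr7-negative cells of tumor lung Tgfb1 was at 1.76 (1.60 to 1.92) and Tgif1 at 1.64 (1.49 to 1.80), and Tgfbr2 was 2.69-fold (2.40 to 3.02) lower, which gave 2 higher and 1 lower, against 30.1% of genes either way, 20.5% higher and 9.68% lower. The Ldlrad4 interval included equality in that pair of classes, at 1.12 (0.897 to 1.39).

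In normal lung the Ccr7-positive classes gave 1 member higher, Ldlrad4 at 3.08 (2.01 to 4.54), and 1 lower, Tgfbr2 at 1.59-fold (1.34 to 1.89), against 25.5% of genes either way, 13.7% higher and 11.7% lower. Tgfb1 was at 1.49 (1.23 to 1.78) and Tgif1 at 1.36 (1.12 to 1.62). The Ccr7-negative classes of normal lung gave 4 of 8 tested members higher and 1 lower, against 41.3% of genes either way, 19.7% higher and 21.6% lower, from the 31 cells. Tgfbr2 was at 0.363 (0.187 to 0.639) and Tgif1 at 2.56 (1.76 to 3.61) in them. A lower Tgfbr2 level in Foxp3-positive cells was thus seen in all 4 within-library comparisons.

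**Figure D3:**
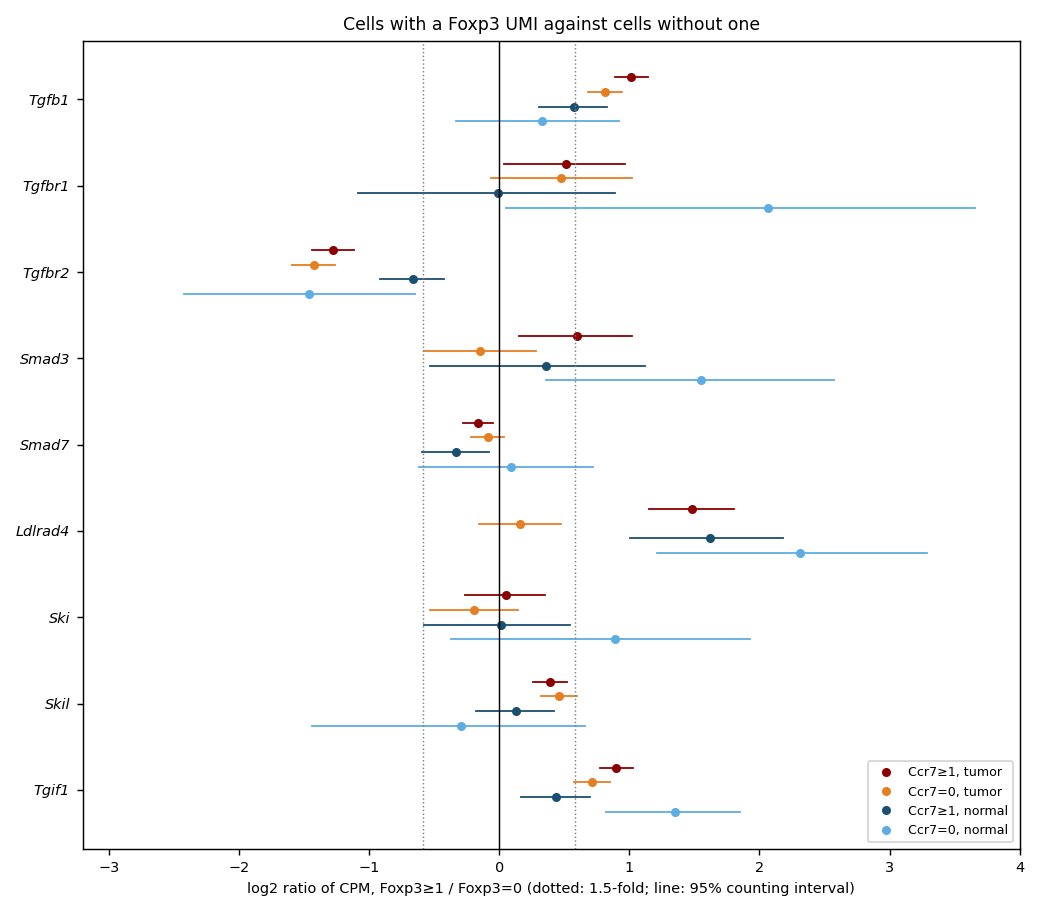
Log2 ratio of Foxp3-positive to Foxp3-negative CPM (x axis) for each gene (y axis), within Ccr7-positive and Ccr7-negative cells of tumor and normal lung, with 95% counting intervals and dotted lines at 1.5-fold. Tgfbr2 lies left of 0 in all 4 comparisons, and Tgfb1 and Tgif1 lie right of 0 in all 4, with the widest bars for the 31 normal cells.

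Some Foxp3-negative cells carried transcripts of other Treg markers. A comparison added after the data were seen left out Foxp3-negative cells with a UMI of Il2ra, Ikzf2 or Ctla4. In tumor lung the Ccr7-positive ratios were then 2.15 (1.97 to 2.36) for Tgfb1, 0.404 (0.361 to 0.450) for Tgfbr2 and 3.80 (2.96 to 4.86) for Ldlrad4. The Ccr7-negative Ldlrad4 ratio became 1.60 (1.19 to 2.16) against the 642 cells left, past 1.5-fold where it had been 1.12.

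Ccr7-negative cells were set against Ccr7-positive cells within each library and Foxp3 compartment. The share of all genes called also differed between these compartments. In tumor-lung Foxp3-positive cells 0 members were called between Ccr7-negative and Ccr7-positive cells, against 11% of genes either way, 7.06% higher and 3.94% lower. Tgfb1 was at 1.20 (1.09 to 1.32) and Tgfbr2 at 0.767 (0.662 to 0.889). In tumor-lung Foxp3-negative cells Ldlrad4 at 2.53 (2.09 to 3.04) and Smad3 at 1.68 (1.33 to 2.09) were higher in Ccr7-negative cells, 2 members higher and 0 lower, against 15.8% of genes either way, 12.2% higher and 3.61% lower. In normal-lung Foxp3-negative cells Smad3 at 1.76 (1.32 to 2.32) and Ldlrad4 at 1.52 (1.08 to 2.10) were higher and Tgfbr1 was 1.68-fold lower, 2 higher and 1 lower, against 22% of genes either way, 15.2% higher and 6.86% lower. Tgfb1 was 1.38-fold (1.28 to 1.497) and 1.40-fold (1.26 to 1.56) higher in the Ccr7-negative cells of the 2 Foxp3-negative compartments. In normal-lung Foxp3-positive cells, where 5 members had enough UMIs, 1 was called higher and 2 lower, against 38.6% of genes either way, 23.8% higher and 14.8% lower, and the calls rest on the 31 cells. Tgif1 was at 1.84 (1.24 to 2.67) there and Tgfbr2 at 0.526 (0.266 to 0.948).

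Other genes of the pathway were taken from lists by role, whose counts between the lungs stand against 27.1% of all genes called higher and 8.24% lower in Foxp3-positive cells, and 6.94% and 2.24% in Foxp3-negative cells. Of 14 genes for ligands and their activation, 7 could be tested in Foxp3-positive cells, and between the lungs 3 were higher and 2 lower, with a median log2 ratio of 0.18 against 0.21 over all genes. Itgav, an integrin chain that releases latent TGF-beta, had 3305 UMIs in tumor and 67 in normal lung, 537 against 74.5 CPM, a ratio of 7.21 (5.66 to 9.32). Its partner Itgb8 had 249 and 9 UMIs, a ratio of 4.04 (2.10 to 8.94), and Furin, a convertase that processes the precursor, was at 3.44 (1.78 to 7.63). Itgb8 passed the minimum of UMIs through tumor lung, where it was high. Lrrc32, which holds the latent complex on Tregs, was lower, at 116 against 181 CPM, a ratio of 0.643 (0.541 to 0.767), as was Itgb1, an integrin chain, at 0.299 (0.257 to 0.348). In Foxp3-negative cells 2 of 7 were higher and 1 lower, Itgav at 2.12 (1.88 to 2.38), Furin at 1.66 (1.44 to 1.92) and Itgb1 at 0.633 (0.595 to 0.672). Itgb8 had 41 and 2 UMIs there, under the minimum, and Lrrc32 was at 1.30 (1.02 to 1.66).

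Within tumor lung these activation genes were mostly higher in Foxp3-positive cells. Among Ccr7-positive cells 6 of 7 tested were higher in Foxp3-positive cells and 0 lower, with a median log2 ratio of 1.23 against 0.18 over all genes, where 24.2% of genes were called higher. Among Ccr7-negative cells 4 of 7 were higher and 1 lower, where 20.5% of genes were called higher and 9.68% lower. Itgb8 was 50.1-fold (28.8 to 93.4) higher among Ccr7-positive and 7.57-fold (4.98 to 11.9) higher among Ccr7-negative cells. Lrrc32 was 30.5-fold (23.5 to 40.0) and 6.95-fold (5.46 to 8.95) higher, and Itgav 20.1-fold (18.0 to 22.4) and 6.58-fold (5.92 to 7.32). In Ccr7-positive cells of normal lung 4 of 6 were higher and 0 lower, where 13.7% of genes were called higher. Lrrc32 is also among the Treg markers.

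Of 10 other receptors of the family, 1 could be tested in Foxp3-positive cells, Bmpr2, a receptor for bone morphogenetic proteins, at 5.36 (1.79 to 26.4) from 110 and 3 UMIs. It passed the minimum of UMIs through tumor lung, where it was high, so its call is not independent of the filter. In Foxp3-negative cells 1 of 5 was higher and 0 lower, Bmpr2 at 1.64 (1.21 to 2.25), and Acvr2a, an activin receptor, was the lowest at 0.886 (0.655 to 1.20). Tgfbr3, the coreceptor betaglycan that presents ligand, followed Tgfbr2 within tumor lung: it was 3.86-fold lower in Ccr7-positive Foxp3-positive cells (29 against 968 UMIs, ratio 0.259, 0.172 to 0.374), and had 1 against 111 UMIs in the Ccr7-negative classes, a ratio of 0.0109 (0.000275 to 0.0623). It was named after its values were seen.

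Of 13 Smads and signaling genes in the files, 8 were tested in Foxp3-positive cells, with 1 higher between the lungs, Tab2, an adaptor of the TAK1 kinase, at 1.85 (1.26 to 2.83), and 1 lower, Smad5, which serves bone morphogenetic proteins, at 0.654 (0.394 to 1.14). The partners of Smad3 were within 1.5-fold, Smad2 at 0.843 (0.587 to 1.24) and Smad4 at 0.697 (0.454 to 1.11). In Foxp3-negative cells 0 of 9 were called, and they ran from Smad4 at 0.759 (0.688 to 0.837) to Ep300, a coactivator, at 1.16 (1.04 to 1.29), with Smad2 at 1.00 (0.909 to 1.11). Of 20 inhibitors and turnover genes, 17 were tested in Foxp3-positive cells, with 4 higher and 1 lower, near the 27.1% and 8.24% of all genes, and a median log2 ratio of 0.31 against 0.21. Pmepa1, a target gene whose product holds receptor-regulated Smads away from the receptor, was highest at 2.15 (1.41 to 3.43), and Tgif2, a relative of Tgif1, lowest at 0.608 (0.465 to 0.805). In Foxp3-negative cells 2 of 19 were higher and 0 lower: Smurf2, a ubiquitin ligase that works with Smad7, at 1.78 (1.54 to 2.07), and Pmepa1 at 1.61 (1.45 to 1.80). The lowest was Nedd4l at 0.805 (0.689 to 0.940). Smurf2 was at 1.48 (0.770 to 3.17) in Foxp3-positive cells, and Smurf1 at 1.05 (0.868 to 1.27) in Foxp3-negative cells, with 31 and 8 UMIs too few for a ratio in Foxp3-positive cells.

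Of 18 genes listed as induced by TGF-beta, 12 were tested in Foxp3-positive cells, 9 higher in tumor lung and 1 lower, with a median log2 ratio of 1.16 against 0.21 over all genes. In Foxp3-negative cells 8 of 14 were higher and 0 lower, with a median of 1.08 against 0.03. By Ccr7 level the Foxp3-negative median was smaller. In Ccr7-positive Foxp3-negative cells 5 of 11 were higher and 0 lower (median 0.47 against 0.02), where 5.51% of genes were higher and 2.22% lower. In Ccr7-negative ones 7 of 12 were higher and 0 lower (median 0.79 against -0.02), where 7.9% were higher and 5.55% lower. The Foxp3-positive medians were 1.26 against 0.16 in Ccr7-positive and 0.62 against 0.08 in Ccr7-negative cells, the last with 31 normal cells. Itgae, the integrin chain of tissue-resident lymphocytes, stood at 148 against 52.2 CPM in Foxp3-positive cells, a ratio of 2.83 (2.11 to 3.87), and at 4.73 (3.04 to 7.61) in Foxp3-negative cells. Klf10, an early TGF-beta gene, was at 1.77 (1.21 to 2.68) and 2.58 (2.33 to 2.85), and Rgs16, a regulator of chemokine receptor signaling, at 7.07 (5.17 to 9.93) and 5.87 (4.81 to 7.23). Ccr8 had the largest ratio in Foxp3-positive cells and Id3, an inhibitor of E proteins, the smallest, 0.263 (0.193 to 0.362). The lowest in Foxp3-negative cells was Cited2 at 0.850 (0.813 to 0.889). Many of these genes are also known to respond to T cell activation, and Junb is in the early response list too.

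Of 11 genes that TGF-beta lowers in lymphocytes, 10 were tested in Foxp3-negative cells, 2 higher and 6 lower in tumor lung, with a median log2 ratio of -0.69 against 0.03. By Ccr7 level the list split. In Ccr7-negative cells 2 of 10 were higher and 7 lower, where 7.9% of all genes were higher and 5.55% lower. The median there was -1.58 against -0.02 over all genes. In Ccr7-positive cells 2 of 8 were higher and 1 lower, where 5.51% of all genes were higher and 2.22% lower. The median there was 0.18 against 0.02. The sum of natural killer cell markers in Ccr7-negative Foxp3-negative cells was 4.45 CPM in tumor against 12.6 in normal lung, from 20 and 31 UMIs. Its genes did not share a direction. Over all kept cells Klre1 had 1 UMI in tumor and 21 in normal lung, Ncr1 8 and 8, and Klrb1c 24 and 10. Cells with an Nkg7 UMI, counted further below, were a smaller part of Ccr7-negative Foxp3-negative cells in tumor than in normal lung. The part of these transcripts and cells in the list values was not tested. S1pr5, a receptor of circulating effector cells, had 3 UMIs in tumor and 107 in normal lung, a ratio of 0.0296 (0.00601 to 0.0888). Gzmb, a granzyme, ran the other way at 5.39 (4.46 to 6.54). In Foxp3-positive cells 5 were tested, 3 higher and 1 lower, with a median log2 ratio of 2.24 against 0.21, Gzmb at 16.8 (11.5 to 25.5) and Klf2 at 0.186 (0.172 to 0.200).

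**Figure D4:**
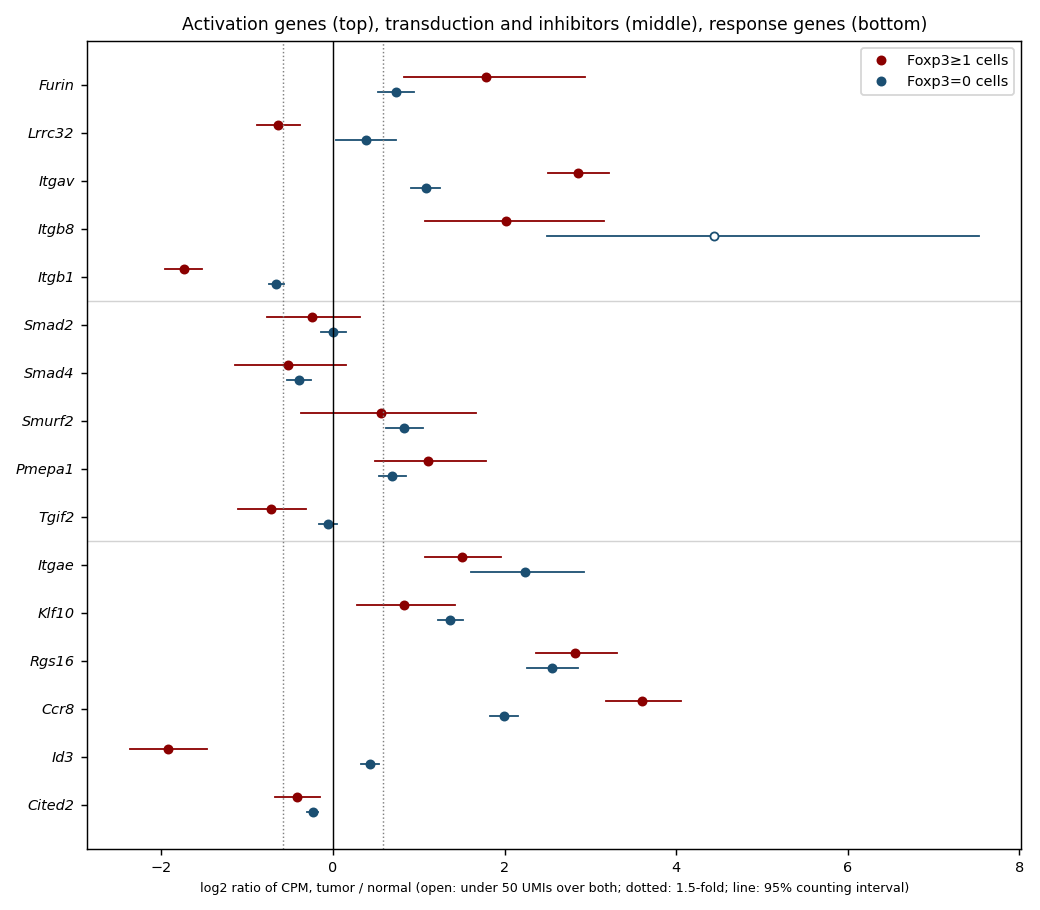
Log2 ratio of tumor to normal CPM (x axis) for 16 genes of the pathway lists (y axis), Foxp3-positive cells in dark red and Foxp3-negative cells in dark blue, with 95% counting intervals; an open symbol has under 50 UMIs over both lungs. Itgav, Itgb8 and Furin lie right of 0, and Lrrc32 lies left of 0 in Foxp3-positive cells.

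To see how the members varied within the tumor-lung compartments, Foxp3-positive cells and Ccr7-negative Foxp3-negative cells were each split by a UMI of 6 marker genes in turn. Among the 1147 Foxp3-positive cells, the 386 with Itgae had 1.53-fold (1.19 to 1.96) more Ldlrad4, 56.3 against 36.8 CPM, and 1.26-fold (1.14 to 1.38) more Tgfb1. The 759 with Ccr8 had 1.36-fold (1.21 to 1.54) more Skil, 256 against 188 CPM, 1.35-fold (1.21 to 1.503) more Tgfb1 and a Tgfbr2 ratio of 0.824 (0.706 to 0.962). The 167 with Nkg7, a gene of cytotoxic granules, had less Tgfbr2, 75.4 against 129.6 CPM, a ratio of 0.582 (0.458 to 0.731). The 164 with Il1rl1, which encodes ST2, had 1.64-fold (1.07 to 2.46) more Smad3, 1.21-fold (1.07 to 1.36) more Tgfb1 and 1.22-fold more Tgif1. A cell with more UMIs is more likely to pass a gate, and the Nkg7-positive cells had a median of 6053 UMIs against 4549.

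Among Ccr7-negative Foxp3-negative cells of tumor lung, the 51 with Itgae had 1.94-fold (1.49 to 2.48) more Tgfb1, 331 against 171 CPM, and a Tgfbr2 ratio of 0.590 (0.411 to 0.821). The 125 with Nkg7 had a Tgfbr2 ratio of 0.504 (0.408 to 0.617), 156 against 309.6 CPM, a Smad7 ratio of 0.650 (0.530 to 0.790) and 2.01-fold (1.26 to 3.12) more Smad3. The same gate in normal lung, with 191 cells, gave 0.655 (0.546 to 0.783) for Tgfbr2, 0.557 (0.434 to 0.709) for Smad7 and 2.30 (1.35 to 3.95) for Smad3. Ccr7-negative Foxp3-negative cells with an Nkg7 UMI, in both lungs, thus had lower Tgfbr2 and Smad7 and higher Smad3. The 154 with Cxcr6, a receptor of tissue memory cells, had 2.01-fold (1.42 to 2.80) more Ldlrad4 and 1.68-fold (1.43 to 1.97) more Tgfb1. The 27 with Mki67, a proliferation marker, had a Smad7 ratio of 0.469 (0.296 to 0.707). The 22 with Il1rl1 had 2.83-fold (2.03 to 3.87) more Tgfb1, from 42 UMIs, and the 191 with Ccr8 had 1.82-fold (1.29 to 2.55) more Ldlrad4. Tregs carry both gate genes, and only 642 of the 1139 cells of this class had no UMI of Il2ra, Ikzf2 or Ctla4. How many gated cells were Tregs without a Foxp3 UMI was not tested.

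**Figure D5:**
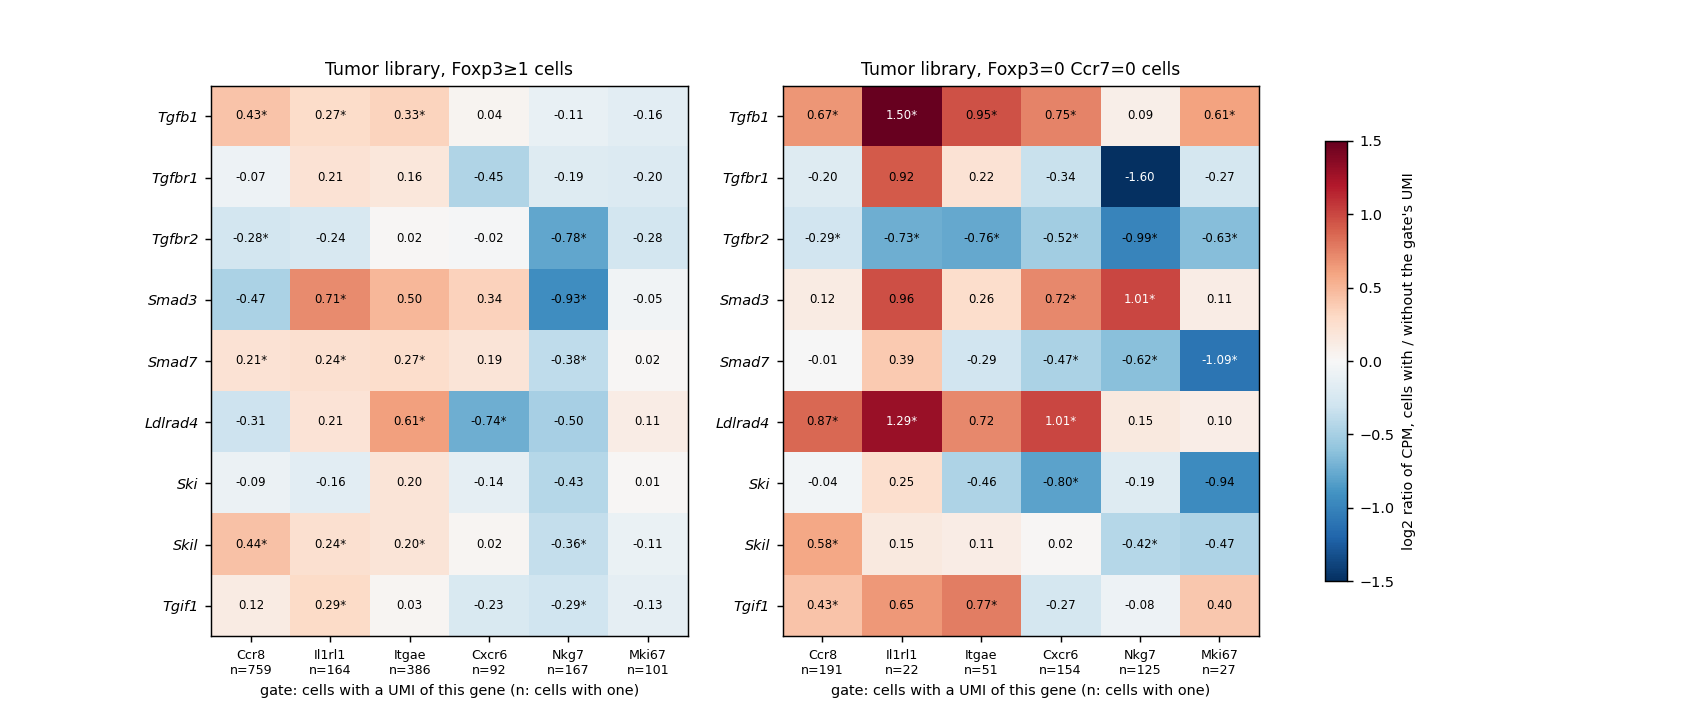
Log2 ratio of CPM in cells with against without a UMI of each gate gene (x axis, with the number of cells that have one) for the 9 genes (y axis), in tumor-lung Foxp3-positive cells and in Ccr7-negative Foxp3-negative cells; an asterisk marks a 95% counting interval that excludes equality. The Nkg7 gate is low for Tgfbr2 in both panels, and the Tgfb1 row is high for the Itgae and Ccr8 gates.

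Most cells had at least 1 UMI of at least 1 member, 97.2% in tumor and 93.9% in normal lung, with a median of 3 and 2 members per cell, and 4 in tumor-lung against 3 in normal-lung Foxp3-positive cells. Over the 8 class sums, log2 levels of Tgfb1 and Tgif1 had a Pearson r of 0.85 and those of Tgfbr2 and Tgif1 of -0.92, with Skil and Smad7 at 0.80. These 8 points share 2 libraries and differ in depth, and the r are descriptions. Among 7944 genes compared in the same way, the patterns most like each member were those of Sigirr (r 0.996) and Alad (0.995) for Tgfb1, Sec24a (0.971) and Rtl8a (0.962) for Tgfbr1, Prdx6 (0.996) and Gm47015 (0.995) for Tgfbr2, and Cwc25 (0.988) and Zfp821 (0.983) for Smad3. For Smad7 they were Ppp1r21 (0.951) and Ciart (0.930), for Ldlrad4 Ccser2 (0.976) and Jak2 (0.973), for Ski Birc6 (0.982) and Tollip (0.974), for Skil Tmem9 (0.977) and Psmd12 (0.973), and for Tgif1 Cd99l2 (0.996) and Grhl1 (0.989).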

How the data were processed

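The authors deposited matrices of unnormalized UMI counts for each gene in each of 7788 barcodes from tumor and 7745 from normal lung. Cell Ranger 3.1.0 is named per the file headers, and the mm10 genome per the submitters' processing notes. The deposited receptor tables, of 22605 and 22474 contigs, gave UMI counts per contig per the file headers and served only to find doublets. Cells with under 500 detected genes or 10% or more mitochondrial UMIs (120 and 61), then those with more than 2 productive alpha or 1 productive beta chain (533 and 602), were left out. UMIs were added up within each class of a library and expressed as CPM with python 3.11.15, numpy 2.4.6, scipy 1.17.1, pandas 2.3.3 and matplotlib 3.10.9. Poisson intervals are exact, ratio intervals exact conditional on the total, share intervals Clopper-Pearson, all at 95%. Tagged molecules are amplified by PCR, the UMI marks copies of the same molecule, and intervals cover counting error only. Shares were also taken with each cell thinned to 2417 UMIs, leaving out 393 and 708 shallower cells. The scripts were tested on simulated data. Likeness is Pearson r of log2(CPM + 1).

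The members and gene lists were chosen with earlier results of these data known. Genes named from a list were those with the largest and smallest tumor to normal ratio in Foxp3-positive and in Foxp3-negative cells, and Itgae, Klf10, Lrrc32, Itgb8, Itgav, Furin, Smad2, Smad4, Pmepa1, Smurf1 and Smurf2, and for each member the 2 genes most like it. Tgfbr3 and the members of a list given only as markers fall outside that rule. Promoter sequences are from RefSeq on GRCm38.p6. Alternatives covered the cell filter, the class rules, thinning before classing, 2 other scalings, equal weight per cell, shared barcodes, the minimum of UMIs, the fold and the pseudocount. A further planned split of the cells by a marker gene is not reported here.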

Additional observations from a re-analysis of the deposited data

Results flagged for a closer look

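Tgfbr2 differed between tumor and normal lung in opposite directions in the Foxp3-positive and Foxp3-negative compartments as a whole and among Ccr7-positive cells. Over all Ccr7 levels its tumor to normal ratio was 0.696 in Foxp3-positive cells and 1.13 in Foxp3-negative cells, and among Ccr7-positive cells it was 0.756 and 1.15. In Ccr7-negative cells, where the normal Foxp3-positive class held 31 cells, the ratios ran the same way, 1.10 and 1.08, and their quotient was 1.02 (0.572 to 1.83). With 1 library per tissue the difference was not tested over replicates.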

How the results depend on the processing

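No paired analysis was possible because each tissue had 1 library and no result came from a test. Of 1179 ratios of a member recomputed under an alternative, 1116 moved by less than the counting interval of the main value, 61 moved further and 2 changed sign, both in the 31 normal Foxp3-positive Ccr7-negative cells when cells were thinned before classing: the log2 ratio of Ldlrad4 became 0.27 between the lungs (from -1.03) and -0.17 between Ccr7 levels (from 1.30). The number of members called, 2 in Foxp3-positive cells between the lungs, became 4 with the strict cell filter, 4 with at least 2 Foxp3 UMIs and 4 as a mean of per-cell CPM. It went from 2 to 1 in Foxp3-negative cells and from 4 to 1 in Ccr7-positive Foxp3-positive cells, both under median of ratios and under totals without mitochondrial, ribosomal and receptor genes. It went from 0 to 1 in Ccr7-positive Foxp3-negative cells with no cell filter or with thinning. Between Foxp3 classes it went from 3 to 6 in Ccr7-negative tumor cells with thinning, and from 2 to 4 (at least 2 Foxp3 UMIs) or 1 (mean of per-cell CPM) in Ccr7-positive normal cells. Between Ccr7 levels of tumor Foxp3-negative cells it went from 2 to 1 with thinning. The share of all genes called under each of these settings is not given here, so the moved counts cannot be set against it. The cause of these moves was not tested. Under both other scalings the Tgfb1 log2 ratio in Foxp3-positive cells was 0.59 in place of 0.80, and Tgfbr2, Skil, Smad7 and Tgif1 kept their direction there. With a pseudocount of 10 CPM the pair of genes most like a member changed for 7 of 9 members. At 2-fold in place of 1.5-fold, 8 of 14 list counts moved by over 1.5 times. Of 72 member levels, 59 left their counting interval under totals without mitochondrial, ribosomal and receptor genes, 15 with thinning and 7 as a mean of per-cell CPM, and 58 of 72 shares of cells did so without thinning.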
